A study of Homo sapiens with 4 samples.

Results

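Low cycle cells are the U-2 OS cells in which both replication and mitosis transcripts were scarce, and they were compared here between irradiated and untreated cultures. For each cell, counts per 10000 were summed over 10 replication genes (S sum: MCM2, MCM4, MCM5, MCM6, PCNA, TYMS, RRM2, CDC6, GINS2 and UHRF1) and over 10 genes of G2 and mitosis (M sum: CDK1, CCNB1, TOP2A, CENPF, MKI67, TPX2, UBE2C, PLK1, AURKA and KIF11). A cell was a member when its S sum lay under 14.9 and its M sum under 9.03, the 40th percentile of each over all 1220 cells, and 368 cells met both. The members were thus selected on measured values of these 20 genes, which are given below as a description without a test. The last member under the S limit had 14.86 and the first cell not under it 14.89, and the same values at the M limit were 9.0005 and 9.05. In all, 47 members and 39 other cells lay within 20% of a limit.

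The cells are an established human osteosarcoma line. UT cultures received no treatment, and IR cultures received 4 Gy of ionizing radiation. The time between irradiation and sorting is given as 48 h in the design text and as 24 h in the treatment protocol. The study's methods also give 48 h for these single-cell libraries. Each group had 1 library from each of 2 experiments, made by SORT-seq, in which single cells are sorted by flow cytometry into wells, each well's polyadenylated RNA receives the well's barcode and a random tag per molecule (unique molecular identifier, UMI), and 3′ ends are sequenced.

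A human cell divides only after passing from G1 into S phase, when E2F factors drive replication genes, and later through G2 and mitosis, when the genes of the mitotic machinery are switched on. DNA damage raises CDKN1A (p21), an inhibitor of the cyclin-dependent kinases that start both programmes. Cells in G1, cells that have paused and cells that have left the cycle for good all have little of both programmes, so a cell with low S and M sums is not thereby assigned to any of these states.

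The members made up 18.4% of UT cells in experiment 1 (66 of 358, 95% exact binomial interval 14.6 to 22.8) and 17.4% in experiment 2 (64 of 367, 13.7 to 21.7). In IR they made up 47.8% (118 of 247, 41.4 to 54.2) and 48.4% (120 of 248, 42.0 to 54.8). The share was higher in IR in both experiments, by 30.1 percentage points on average, and the libraries of the groups did not overlap. These intervals cover counting error only, and an exact permutation test of 2 against 2 libraries cannot go below p = 0.333. When members were chosen after every cell had been thinned to a common depth of 8000 UMIs, UT held 16.8% and 15.7% and IR 47.6% and 46.1%.

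**Figure D1:**
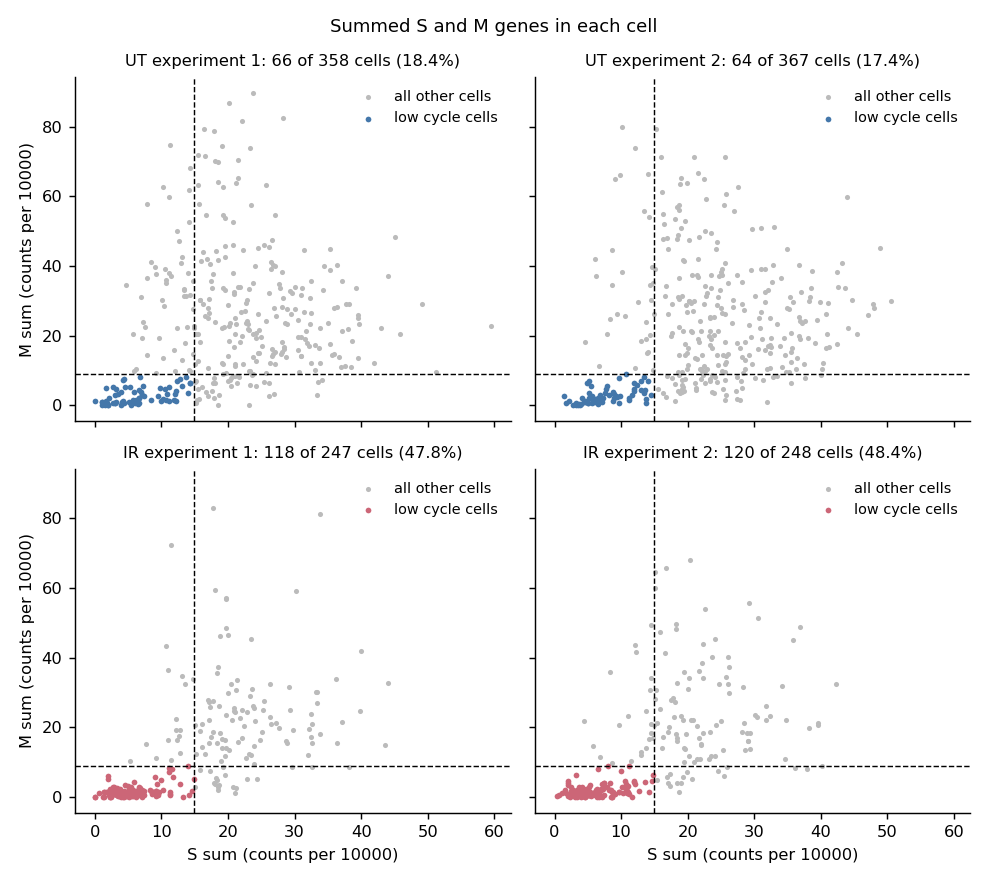
Each point is a cell, with its S sum on the x axis and its M sum on the y axis (counts per 10000), in 1 panel per library, and dashed lines mark the limits of 14.9 and 9.03. Members are coloured and fill the lower left corner, with 66 and 64 cells in the UT libraries and 118 and 120 in the IR libraries.

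Within the members the sums were not equal between groups. The median S sum was 5.94 and 7.03 in UT members and 4.97 and 5.94 in IR members, and the median M sum was 2.06 and 2.12 against 1.11 and 1.37. Among cells that were not members the median M sum was 23.8 in both UT libraries and 19.6 and 20.7 in IR. Of the marker genes, MKI67, the proliferation antigen, had 33.7 and 45.3 CPM (summed counts of a library's members, scaled to a total of 1000000) in UT members and 13.6 and 18.6 in IR members. TOP2A, the topoisomerase that untangles replicated chromosomes, had 29.5 and 37.4 against 23.3 and 26.3. MCM2, a subunit of the replicative helicase, had 44.3 and 49.2 against 19.4 and 27.4. All 3 were several times higher in the other cells of every library, where MKI67 had between 278 and 498 CPM, TOP2A between 334 and 484 and MCM2 between 121 and 171, as the choice of members requires. Of the 10 S genes 7 were lower in IR members in both experiments and 1 was higher, and the same counts held for the 10 M genes. For this reason an additional comparison, chosen after seeing the data, used 130 IR members matched to the 130 UT members of the same experiment on the ranks of S and M, which brought the IR medians of S to 5.69 and 6.89 and of M to 1.64 and 2.01.

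Summed counts came to 949066 and 1015304 for UT members and to 2580040 and 2735658 for IR members. The median count of a UT member was 14323 and 14704, and that of an IR member 19582 and 20839. With 8000 UMIs kept per cell, UT members showed a median of 3670 and 3688 genes, against 3725 and 3737 for IR members. Mitochondrially encoded transcripts took a median of 4.95% and 5.25% of the counts of a UT member and 2.75% and 3.03% of those of an IR member. Barcodes come from one plate design, so that pairs of libraries shared 173 to 350 of them, and cells are identified here by library and barcode. Of 15 markers of other cell types, KRT14 and EPCAM alone passed the filter on low counts, 6 were at 0 in all members, and the 15 together came to 46.3 to 51.7 CPM in UT members and 19.8 to 36.6 in IR members. Of the 14 osteoblast lineage genes 8 passed that filter and none was called in any fit. COL1A1, the main bone collagen gene, had 2767 and 2064 CPM in UT members and 2452 and 2002 in IR members (edgeR adjusted p = 0.838).

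Promoters of MKI67 and MCM6, which the choice used, of DTL, and of IFIT1 and IFIT3 are shown as examples. They were picked because they hold short motifs known for these programmes. Sequences are those of RefSeq (build GRCh38.p14), within 250 bases upstream of the annotated start, 5′ to 3′ on the gene's strand, with the motif in capitals.
MKI67, 2 copies of the cell cycle homology region (CHR, TTTGAA), chr10:128126445-128126490, minus strand: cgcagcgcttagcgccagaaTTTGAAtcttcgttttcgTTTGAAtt
MCM6, E2F motif (TTTGGCGC), chr2:135876506-135876553, minus strand: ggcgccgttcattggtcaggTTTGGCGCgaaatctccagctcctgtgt
DTL, E2F motif, chr1:212035720-212035747, plus strand: atcagagagcgtgacgtcagTTTGGCGC
IFIT1, 2 copies of the interferon-stimulated response element core (ISRE, GAAANNGAA, here on the opposite strand), chr10:89392488-89392536, plus strand: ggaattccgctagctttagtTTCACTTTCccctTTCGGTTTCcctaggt
IFIT3, ISRE core on the opposite strand, chr10:89327856-89327904, plus strand: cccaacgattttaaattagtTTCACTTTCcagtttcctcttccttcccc

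Both strands were searched, with TTTCCCGC as the second E2F motif. The CHR stood in the promoters of 5 of the 7 M genes with a RefSeq entry, against 13.6% of all 27305 promoters. An E2F motif stood in 5 of 8 S genes, against 1.96% of all promoters. The ISRE core stood in 18 of 34 interferon-stimulated genes, against 7.06%. Such a match describes letters and not a bound site.

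The main question was which other transcripts differed between irradiated and untreated cells once both were low in the cycle programmes. Counts of the members were summed per library and 12053 genes outside the rule were tested with edgeR's quasi-likelihood test. At an adjusted p under 0.05, 10 genes were higher in IR members (0.083% of those tested) and 3 were lower (0.0249%), and 1269 had an unadjusted p under 0.05. The experiment numbers pair the libraries, and a fit blocked on the experiment (1 residual degree of freedom) called 524 genes higher (4.35%) and 442 lower (3.67%), among them all 13 of the first fit. The median log2 fold change of all genes was -0.003. In CPM, both IR libraries lay above both UT libraries for 2937 of the 12053 genes and below them for 2093. Such a separation is thus common with 2 libraries per group. DESeq2 called 39 higher and 38 lower.

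GDF15, a secreted stress cytokine, had 24.2 and 38.4 CPM in UT members and 175 and 225 in IR members (log2 fold change 2.61, SE 0.27, edgeR adjusted p = 0.0345). Its IR libraries lay well above its UT libraries, and the rise was spread over many cells: after thinning, the gene was detected in 10.5% and 13.1% of UT members and in 46.5% and 54.8% of IR members (13.6% and 20.3%, then 65.3% and 63.3%, without thinning). Among the other cells it was detected, after thinning, in 2.90% and 5.42% in UT and in 34.2% and 30.8% in IR. Without the 5 cells with most GDF15 in each library, the IR members still had 139 and 164 CPM, against 4.61 and 10.1 in UT. Those cells gave 23.9% and 31.2% of the counts in IR members and 82.6% and 76.9% in UT members. Here and below, 5 cells are a larger part of the 66 and 64 UT members than of the 118 and 120 IR members.

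A group of 3 interferon-stimulated genes rose in IR members. They rose in the other cells too, with log2 fold changes of 1.09 for IFIT1, 1.87 for IFIT3 and 2.30 for OASL. IFIT1, which encodes a sensor of viral RNA caps, had 12.7 and 17.7 CPM in UT members and 92.4 and 146 in IR members (log2 fold change 2.90, SE 0.33, edgeR adjusted p = 0.0345). IFIT3, its partner, had 43.2 and 39.4 against 170 and 274 (2.37, SE 0.28, adjusted p = 0.0356). OASL, an oligoadenylate synthetase-like protein, had 42.2 and 21.7 against 137 and 143 (2.08, SE 0.28, adjusted p = 0.0476). The groups did not overlap for any of these genes (as for 2937 of all 12053 genes in that direction), but few cells carried most of the counts. After thinning, IFIT1 was detected in 5.26% and 6.56% of UT members and in 12.3% and 20.9% of IR members. The same shares were 8.77% and 13.1% against 21.9% and 30.4% for IFIT3. For OASL they were 10.5% and 11.5% against 19.3% and 28.7%. In IR members the 5 highest cells gave 76.5% and 63.1% of IFIT1, 64.6% and 53.8% of IFIT3 and 63.2% and 53.1% of OASL. In UT members they gave 100% and 66.7% of IFIT1, 90.2% and 85% of IFIT3 and 82.5% and 77.3% of OASL, from fewer counts. The top 5 cells of the 3 genes were largely the same ones, with 4 cells in all 3 sets in IR experiment 1 and 3 in IR experiment 2. Without the 5 highest cells per library IFIT1 had 22.7 and 56.3 CPM in IR members and 0 and 6.57 in UT members. IFIT3 then had 63.1 and 133 against 4.68 and 6.63, and OASL 52.7 and 70.4 against 8.21 and 5.39. Across IR members IFIT1 and IFIT3 correlated at r = 0.78 and 0.79 (Spearman's rho 0.57 and 0.65, 114 and 115 cells, thinned UMIs on a log scale, from 1 library each), while IFIT1 and CDKN1A gave -0.12 and 0.03.

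**Figure D2:**
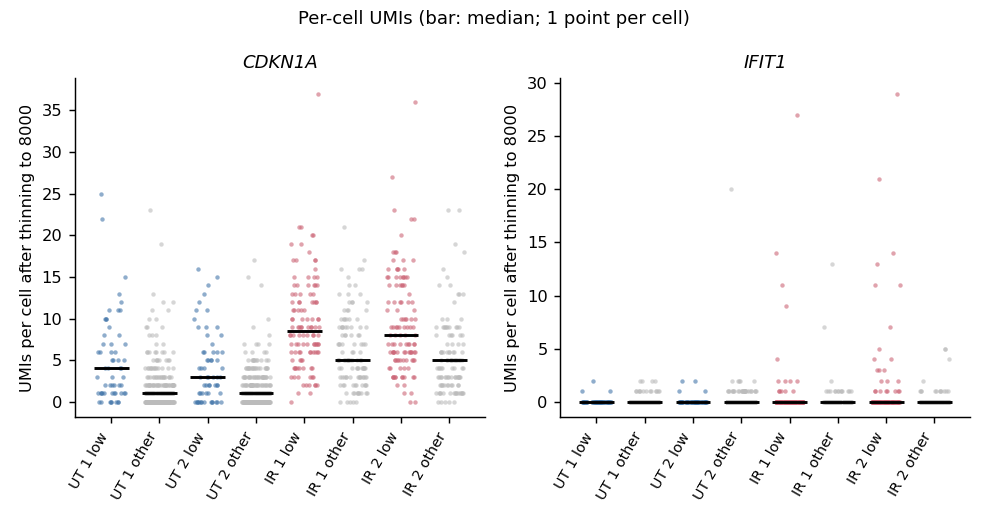
UMIs per cell after thinning to 8000 for CDKN1A (left) and IFIT1 (right), with members coloured, other cells grey, and a bar at each median. CDKN1A has medians of 8.5 and 8 in IR members and of 4 and 3 in UT members, whereas IFIT1 has a median of 0 in every class and single IR members of up to 27 and 29.

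The other 6 called genes that were higher were of mixed kinds. MMP3, a matrix-degrading enzyme, had 7.38 and 0.985 CPM in UT members and 81.6 and 52.0 in IR members (log2 fold change 3.95, SE 0.54, edgeR adjusted p = 0.0476). It rested on 7 and 1 counts in UT, and its 5 highest cells gave 59.6% and 54.96% of its counts in IR members. SUGCT, a mitochondrial acyl-CoA transferase, had 25.3 and 39.4 against 147 and 164 (2.20, SE 0.25, adjusted p = 0.0345). IL7R, the receptor chain for interleukin 7, had 35.8 and 24.6 against 119 and 104 (1.83, SE 0.25, adjusted p = 0.0476). SNAPC1, a subunit of the complex that activates small nuclear RNA genes, had 19.0 and 29.5 against 99.3 and 99.9 (1.97, SE 0.26, adjusted p = 0.0426). The long noncoding RNAs LINC00520 (31.6 and 11.8 against 180 and 141 CPM, 2.84, SE 0.36) and UCA1 (9.48 and 3.94 against 51.2 and 59.7 CPM, 2.99, SE 0.37) each had an edgeR adjusted p of 0.0401. UCA1 rested on 9 and 4 counts in UT, and its 5 highest cells gave 54.6% and 52.2% of its counts in IR members, which had 24.3 and 30.3 CPM without them. For LINC00520 the 5 highest cells gave 49.2% and 37.6% in IR members, which had 98.0 and 94.3 CPM without them, and 93.3% and 100% in UT members. For all 6 genes the lowest IR library lay above the highest UT library, as for 2937 of all 12053 genes. All 6 rose in the other cells too. The log2 fold changes there were 3.03 for MMP3, 3.46 for SUGCT, 1.08 for IL7R, 1.51 for SNAPC1, 4.22 for LINC00520 and 2.40 for UCA1.

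Lower in IR members were GUCY1A2, a subunit of the nitric oxide receptor guanylate cyclase, with 102 and 103 CPM in UT and 25.6 and 31.4 in IR (log2 fold change -1.90, SE 0.22, edgeR adjusted p = 0.0345), and MT-CO3, a cytochrome c oxidase subunit made in mitochondria, with 4258 and 3766 against 1411 and 1473 (-1.53, SE 0.18, adjusted p = 0.0345). CNTNAP2, a neurexin-family adhesion protein, had 30.6 and 29.5 against 5.04 and 5.12 (-2.60, SE 0.34, adjusted p = 0.0426). Its mean was under the 20 CPM asked of named genes, so it was chosen after its values were seen. In the other cells the log2 fold change was -1.32 for GUCY1A2 and -1.52 for MT-CO3.

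**Figure D3:**
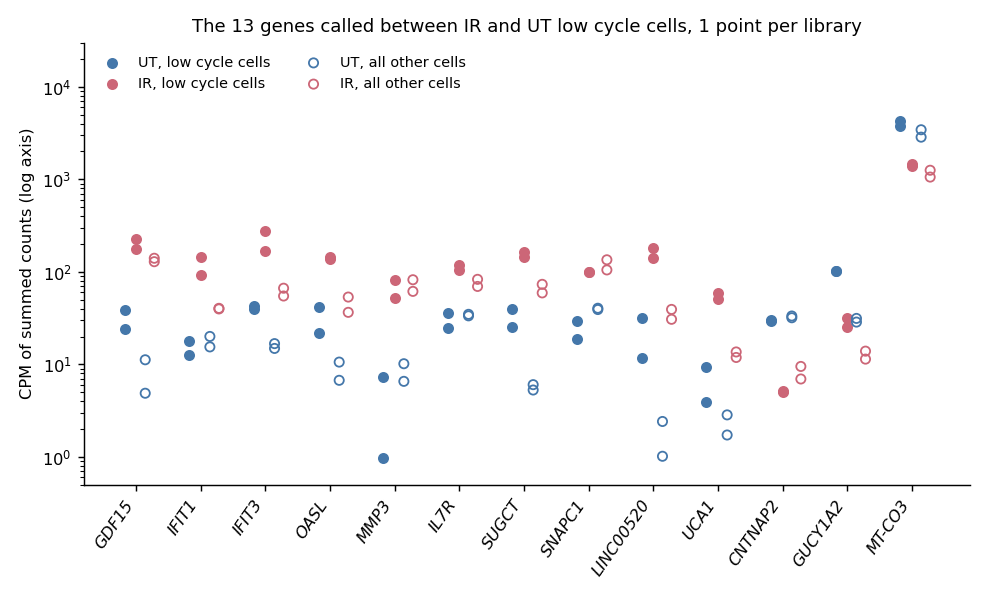
CPM of summed counts (log axis) for the 13 called genes, with 1 point per library, filled for members and open for all other cells, blue for UT and red for IR. The filled red and blue points do not overlap for any gene, as with 175 and 225 CPM against 24.2 and 38.4 for GDF15. Of all 12053 genes tested, 2937 were likewise apart with IR higher and 2093 with IR lower.

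On GRCh38 (GENCODE 44) GDF15 (ENSG00000130513) lies at chr19:18374731-18389176, IFIT1 (ENSG00000185745) at chr10:89392546-89406487, IFIT3 (ENSG00000119917) at chr10:89327307-89377473 and OASL (ENSG00000135114) at chr12:121017763-121039246. MMP3 (ENSG00000149968) lies at chr11:102835801-102843609, SUGCT (ENSG00000175600) at chr7:40135005-40860763, IL7R (ENSG00000168685) at chr5:35852695-35879603 and SNAPC1 (ENSG00000023608) at chr14:61762420-61796428. The noncoding LINC00520 (ENSG00000258791) lies at chr14:55781132-55796731 and UCA1 (ENSG00000214049) at chr19:15828206-15836328. GUCY1A2 (ENSG00000152402) lies at chr11:106674019-107018476 and CNTNAP2 (ENSG00000174469) at chr7:146116002-148420998. CDKN1A (ENSG00000124762) lies at chr6:36676460-36687337. The counts are of exonic reads near the 3′ ends of transcripts.

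CDKN1A had 754 and 621 CPM in UT members and 1201 and 1190 in IR members (log2 fold change 0.74, SE 0.19). Both IR libraries lay above both UT libraries, as for 2937 of all 12053 genes, but edgeR's adjusted p was 0.187 without the block and 1.5e-07 with it. In thinned cells 79.8% and 86.1% of IR members exceeded the median of the UT members of the same experiment. In the cells that were not members CDKN1A had 241 and 217 CPM in UT and 761 and 696 in IR. UT members therefore had 3.00 times the level of the other UT cells, and IR members 1.64 times that of the other IR cells, a contrast that the choice of members shares and that is given without a test. CDKN1A is among the 156 genes with a mean of at least 20 counts per cell in a library, where the 6-base UMIs may limit high counts.

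Of the other genes induced by DNA damage, GDF15 alone was called without the block. MDM2, a ubiquitin ligase, had 152 and 221 CPM in UT members and 291 and 351 in IR members (log2 fold change 0.73, SE 0.23, edgeR adjusted p = 0.277, with the block 2.47e-05). The death receptor gene FAS had 28.4 and 44.3 against 78.3 and 77.5 (1.04, SE 0.25, adjusted p = 0.178, with the block 0.000373). GADD45A, a stress-induced partner of PCNA, had 121 and 118 against 240 and 236 (0.94, SE 0.18, adjusted p = 0.099, with the block 1.43e-06). For all 3 the IR libraries were above the UT libraries, as for 2937 of all 12053 genes. TP53BP1, a mediator of the DNA damage response that is not on the list of damage-induced genes, had 122 and 102 against 124 and 92.9 and was not called in either fit (-0.11, SE 0.22, edgeR adjusted p = 0.918, with the block 0.738).

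The genes on the list of DNA damage-induced genes were listed as targets of the transcription factor p53. Of these 46 genes 43 were in the fit, and their median log2 fold change was 0.45 in members (0.46 and 0.51 in the experiments) and 0.99 in the other cells. GDF15 was called without the block, and 17 were higher and none lower with it, against 4.35% and 3.67% of all genes. The 17 included the phosphatase gene PPM1D and the metabolic regulator TIGAR, at 155 and 183 CPM in UT members and 303 and 306 in IR members. Summed over the list, UT members had 4774 and 4979 CPM and the other UT cells 2651 and 2790, while IR members had 7236 and 7719 and the other IR cells 5652 and 5763.

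Whether a gene's difference between IR and UT was the same in members and in the other cells was tested as an interaction. The test used 8 sums (members and other cells of each library) with a term for each library and 2 residual degrees of freedom. Of 13766 genes, 2 had a higher difference (0.0145%) and 33 a lower one (0.24%), and 1110 had an unadjusted p under 0.05. A lower difference means that the log2 change of a gene from UT to IR was smaller, or more negative, in members. Members were 18.4% and 17.4% of UT cells but 47.8% and 48.4% of IR cells. Each class may therefore hold other kinds of cells in IR than in UT, and the part of this in the differences was not tested. DESeq2 called 0 higher (172 genes in either direction had an unadjusted p under 0.05) and 2 lower, CDKN1A and NEAT1.

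CDKN1A showed the smallest p. Its log2 fold change was 0.74 in members and 1.59 in other cells, and the difference was -0.84 (SE 0.09, edgeR adjusted p = 3.85e-06). Under the 13 alternatives that could be run for this gene the difference lay between -0.90 and -0.68, each with an adjusted p under 0.05. Of the 43 DNA damage-induced genes in the fit of members 7 had a lower difference, against 0.24% of all 13766 genes. They were CDKN1A, MDM2, GDF15, ZMAT3, BTG2, RRM2B and CMBL. MDM2 differed by -0.78 (SE 0.13, edgeR adjusted p = 0.00188) and the antiproliferative gene BTG2 by -1.37 (SE 0.20, adjusted p = 0.00108). BTG2 had 71.6 and 73.9 CPM in UT members and 102 and 105 in IR members, but 16.3 and 24.2 in the other UT cells and 77.0 and 75.4 in the other IR cells. GDF15 differed by -1.36 (SE 0.27, edgeR adjusted p = 0.0136), from 4.88 and 11.2 CPM in the other UT cells to 129 and 140 in the other IR cells. The call for GDF15 was reached in 8 of 14 alternatives, and not without UT experiment 1 (adjusted p = 0.321) or UT experiment 2 (0.430). MDM2 and BTG2 passed in 12 of 14, MDM2 not without UT experiment 2 (adjusted p = 0.401) and BTG2 not without UT experiment 1 (0.1005), and neither with DESeq2. The level in UT members was 2.49 to 3.89 times that in other UT cells for CDKN1A, MDM2, GDF15 and BTG2, and in IR 1.36 to 1.64 times. Without UT experiment 1 or UT experiment 2 the count of lower differences was 16 or 6. FAS (-0.91, SE 0.24, edgeR adjusted p = 0.116) and GADD45A (-0.61, SE 0.14, adjusted p = 0.056) missed the threshold.

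**Figure D4:**
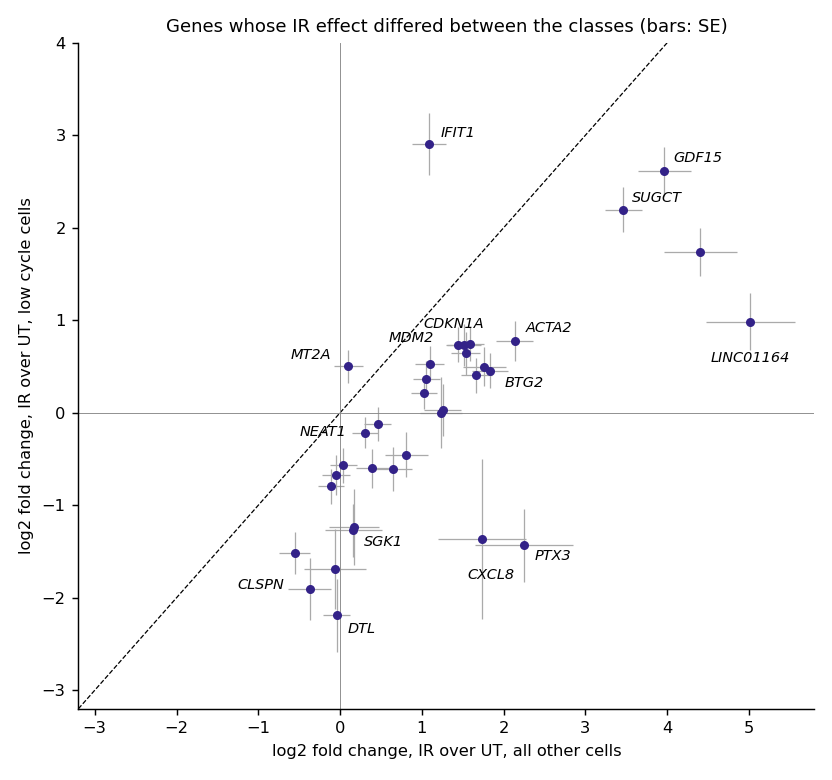
Log2 fold change of IR over UT in all other cells (x axis) and in members (y axis) for the 35 genes whose change differed between the classes, with bars of 1 SE and a dashed line where both are equal. Of these genes 33 lie below the line, among them CDKN1A at 1.59 and 0.74, and IFIT1 and MT2A lie above it.

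The other genes with a lower difference had varied patterns in members. NEAT1, the noncoding RNA of paraspeckles, had 3046 and 3089 CPM in UT members and 2807 and 2691 in IR members, but 924 and 970 in the other UT cells and 1243 and 1225 in the other IR cells (difference -0.51, SE 0.07, edgeR adjusted p = 0.000354). It is among the genes near the UMI limit, and the part of that limit in its difference was not tested. The secreted pattern recognition protein gene PTX3 had 13.7 and 16.8 against 5.43 and 6.21 in members and 1.22 and 4.66 against 20.9 and 9.56 in other cells (-3.67, SE 0.57, adjusted p = 0.00178). AP000527.1, an unnamed noncoding RNA, had 72.7 and 132 against 26.7 and 63.2 in members and 31.5 and 53.3 against 38.3 and 62.6 in other cells (-1.42, SE 0.20, adjusted p = 0.000806). ACTA2, smooth muscle actin, had 43.2 and 43.3 against 81.4 and 72.7 in members and 8.74 and 7.25 against 38.7 and 35.4 in other cells (-1.35, SE 0.26, adjusted p = 0.011). Neither PTX3 nor ACTA2 passed the threshold with DESeq2, without UT experiment 1 or without UT experiment 2, and AP000527.1 did not with DESeq2 or without UT experiment 2 (adjusted p = 0.234). SUGCT rose in members, and the difference from other cells was -1.27 (SE 0.28, edgeR adjusted p = 0.0394). That difference passed the threshold in 6 of 14 alternatives, and not without UT experiment 1 (adjusted p = 0.178), UT experiment 2 (0.671) or IR experiment 2 (0.0553).

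With a higher difference, IFIT1 had 15.5 and 20.1 CPM in the other UT cells and 40.4 and 39.8 in the other IR cells (difference 1.81, SE 0.31, edgeR adjusted p = 0.00398). That call was not reached when members were drawn in equal numbers from the libraries (0.97, adjusted p = 0.520) or matched on S and M (1.05, adjusted p = 0.194), nor without UT experiment 1 (adjusted p = 0.179) or UT experiment 2 (adjusted p = 0.439). The metallothionein gene MT2A is also among the genes near the UMI limit. It had 915 and 972 against 1263 and 1511 in members and 1015 and 1146 against 1083 and 1357 in other cells (0.41, SE 0.08, edgeR adjusted p = 0.00855). That call was reached in 5 of 13 alternatives, and not with DESeq2 (adjusted p = 0.352), without UT experiment 1 (0.068), without UT experiment 2 (0.288) or without IR experiment 1 (0.057).

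Replication genes outside the rule followed the rule's own genes in members. Of 53 other S phase genes 48 were in the fit, with a median log2 fold change of -0.59 in members and -0.27 in other cells, and 35 were lower in both experiments (3762 of all 12053 genes). None was called without the block, and 15 were lower and none higher with it, against 3.67% and 4.35% of all genes. CLSPN, which encodes the checkpoint adaptor claspin, had 50.6 and 31.5 CPM in UT members and 12.8 and 9.87 in IR members (log2 fold change -1.91, SE 0.33, edgeR adjusted p = 0.0721, with the block 3.46e-06). DTL, the substrate receptor that destroys licensing factors in S phase, had 23.2 and 18.7 against 5.43 and 4.02 (-2.19, SE 0.39, adjusted p = 0.0826, with the block 0.000168). The IR libraries lay below the UT libraries for both genes, as for 2093 of all 12053 genes. Both were also among the genes with a lower difference (CLSPN -1.53, SE 0.25, edgeR adjusted p = 0.00188, and DTL -2.15, SE 0.36, adjusted p = 0.0033). Both differences were lost with DESeq2, without UT experiment 1 (adjusted p = 0.139 for CLSPN and 0.179 for DTL) and without UT experiment 2 (0.0969 and 0.114). The rule's own S genes moved in the same direction, and after matching on S and M the log2 fold changes were -1.48 for CLSPN and -1.68 for DTL, while the median of the list was -0.35.

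Genes of G2 and mitosis outside the rule (51 of 69 in the fit) had a median of -0.32 in members, and 4 were lower and none higher with the block (3.67% and 4.35% of all genes). Matching brought that median to -0.01. SMC4, a condensin subunit, had 100 and 88.6 CPM in UT members and 62.8 and 56.7 in IR members (log2 fold change -0.72, SE 0.20, edgeR adjusted p = 0.226, with the block 0.00321). Of 44 replication-dependent histone genes 11 were in the fit and 17 were at 0 in all members, with 2 lower with the block. Of 53 genes of DNA repair and checkpoints in the fit 5 were lower with the block and none higher (3.67% and 4.35% of all genes), and XRCC5, the Ku80 subunit of end joining, had 504 and 393 against 306 and 346 (-0.52, SE 0.20, adjusted p = 0.395, with the block 0.00255).

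The regulators of the G1 to S step did not move together. E2F1, the transcription factor that drives replication genes, had 20.02 and 23.6 CPM in UT members and 4.26 and 7.68 in IR members (log2 fold change -1.91, SE 0.41, edgeR adjusted p = 0.134, with the block 0.000487). Of the 17 genes of the RB, E2F and DREAM list in the fit 2 were lower with the block (3.67% of all genes, as for the lists that follow), E2F1 and FOXM1. Among the CDK inhibitors, 6 of 8 were in the fit, and with the block CDKN1A was higher while CDKN2C, CDKN1B and CDKN1C were lower. CDKN1B, which encodes p27 and is linked to quiescence, had 30.6 and 50.2 against 15.1 and 18.3 (-1.33, SE 0.31, adjusted p = 0.168, with the block 0.000502). CDKN2C, which encodes p18, had 29.5 and 36.4 against 12.02 and 12.1 (-1.51, SE 0.29, adjusted p = 0.107, with the block 0.000349). CCND1, cyclin D1, had 343 and 271 against 399 and 400 and was not called in either fit (0.33, SE 0.19, edgeR adjusted p = 0.611, with the block 0.0618). CKS1B, a small subunit of cyclin-dependent kinases, was the 1 gene of 11 in the G1 list lower with the block, and its change differed from that in other cells (-0.68, SE 0.15, edgeR adjusted p = 0.0312). That difference passed the threshold in 5 of 14 alternatives and came to -0.49 (adjusted p = 0.274) after matching on S and M, and CKS1B is itself a cycle gene. It was lost without UT experiment 1 (0.255), UT experiment 2 (0.483) or IR experiment 2 (0.268). Of 22 quiescence-linked genes in the fit 3 were lower with the block, CDKN1B, SESN3 and HES1, and KLF6 was higher. Of 12 genes of the nuclear lamina and HMGB proteins 2 were lower with the block, TMPO and HMGB1. LMNB1 had 6.32 and 6.89 against 1.94 and 3.29 and was not called (adjusted p = 0.489, with the block 0.224).

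Genes of secreted factors and of the interferon response had positive medians. The senescence secretome list (27 of 41 in the fit) had a median log2 fold change of 0.55 in members and 0.59 in other cells, with GDF15 and MMP3 called without the block and 13 higher and 2 lower with it (4.35% and 3.67% of all genes). FGF2, a growth factor, had 29.5 and 39.5 CPM in UT members and 88.1 and 129 in IR members (log2 fold change 1.59, SE 0.28, edgeR adjusted p = 0.0711, with the block 2.24e-08). In the opposite direction IGFBP5, which binds insulin-like growth factors, had 763 and 801 against 327 and 363 (-1.24, SE 0.18, adjusted p = 0.0564, with the block 7.51e-14). Interferon-stimulated genes (35 of 45) had a median of 0.48 in members, but 0.20 in experiment 1 and 0.85 in experiment 2, and a median of 0.54 in other cells. Of these genes 3 were called without the block and 12 were higher and none lower with it, against the same shares of all genes. RSAD2, the antiviral protein viperin, was at 0 and 1.97 CPM in UT members and at 19.5 and 26.7 in IR members (edgeR adjusted p = 0.0578, with the block 1.14e-06). Of 16 antigen presentation genes 3 were higher with the block (4.35% of all genes), TAP1, B2M and HLA-B. The 18 NF-kB targets in the fit had a median of -0.02 in members and 0.58 in other cells, with 2 lower with the block (CCL2 and IER3, 3.67% of all genes). In the interaction 2 of them had a lower difference (NFKBIZ and CXCL8, 0.24% of all genes). CXCL8 had 1.05 and 28.7 CPM in UT members, so that its 2 UT libraries were far apart.

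**Figure D5:**
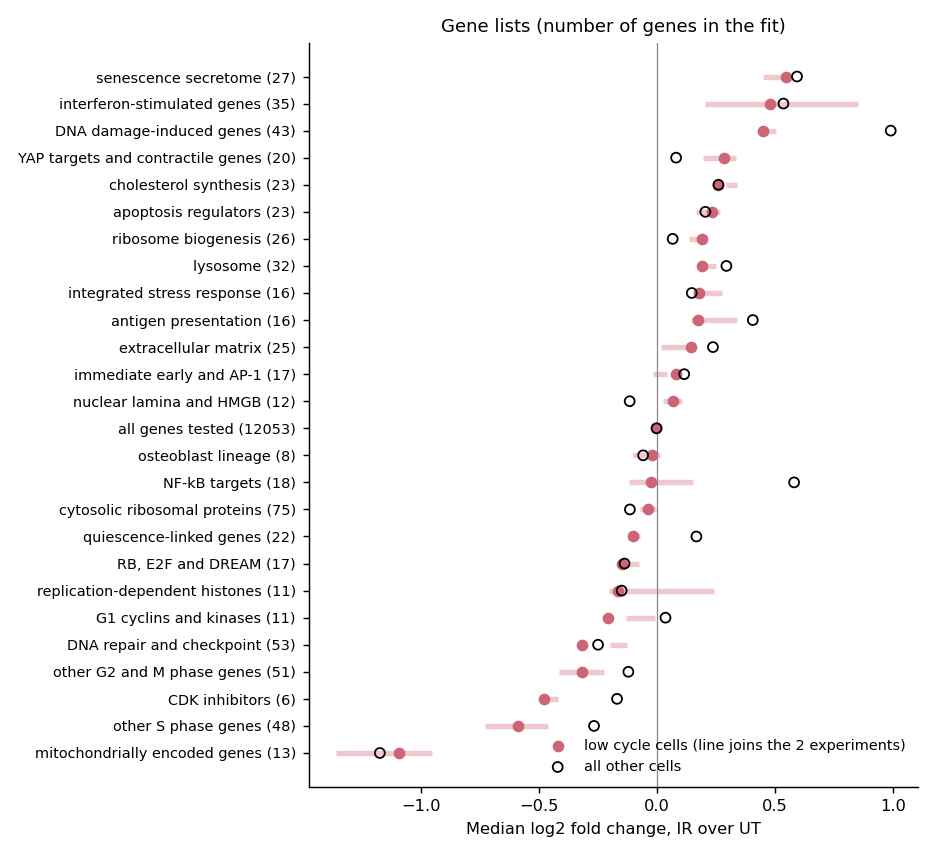
Median log2 fold change of IR over UT for the gene lists named on the y axis and for all genes tested, filled for members and open for all other cells, with a line joining the medians of the 2 experiments, which were computed from log2 CPM with a prior count of 2. DNA damage-induced genes lie at 0.45 in members and 0.99 in other cells, and mitochondrially encoded genes at -1.09 and -1.17.

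Of the 13 mitochondrially encoded transcripts, which code for subunits of the respiratory chain, 11 were lower with the block (3.67% of all genes). All 13 were in the fit at a median log2 fold change of -1.09 in members and -1.17 in other cells, with MT-CO3 called without the block. MT-CO1 had 4666 and 4704 CPM in UT members and 1791 and 2238 in IR members (log2 fold change -1.27, SE 0.19, edgeR adjusted p = 0.0564, with the block 1.63e-15). MT-ND4L and MT-ND6 were not called in either fit. MT-ND4L had 1960 and 1628 CPM in UT members and 2293 and 1702 in IR members, the 1 gene of the list that was higher in both experiments. None of the 13 differed between members and other cells in the interaction. MT-CO3, MT-CO1, MT-ND1 and MT-ND2 are among the genes near the UMI limit, and whether that limit had a part in their lower values was not tested. The share of mitochondrial counts was lower in IR in every class of cell. Its part in the changes of other genes, which are relative to the total, was not tested.

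The remaining lists had medians between -0.04 and 0.28. Their counts with the block are to be read against 4.35% higher and 3.67% lower among all genes. Of 32 lysosomal genes in the fit 7 were higher and 1 lower with the block, of 25 matrix genes 5 and 2, of 20 YAP targets and contractile genes 6 and 2, of 23 cholesterol synthesis genes 5 and 0, and of 23 apoptosis regulators 3 and 2. HMGCS1, an early enzyme of cholesterol synthesis, had 206 and 188 CPM in UT members and 363 and 351 in IR members (log2 fold change 0.80, SE 0.18, edgeR adjusted p = 0.143, with the block 2.88e-06). ANKRD1, a YAP target, had 139 and 128 against 318 and 325 (1.21, SE 0.18, adjusted p = 0.0564, with the block 7.54e-10). COL6A3, a collagen VI chain, had 66.4 and 54.2 against 117 and 128 (0.96, SE 0.21, adjusted p = 0.134, with the block 6.06e-05). The cell death genes BMF and BCL2L11 were lower with the block, at 30.6 and 56.1 against 5.43 and 10.6 for BMF (-2.48, SE 0.42, adjusted p = 0.0647, with the block 2.5e-08) and at 50.6 and 75.8 against 24.4 and 25.2 for BCL2L11 (-1.41, SE 0.26, adjusted p = 0.0941, with the block 1.31e-05). Of 16 genes of the integrated stress response 2 were higher and 1 lower with the block, of 17 immediate early and AP-1 genes 2 and 1, and of 26 ribosome biogenesis genes 2 and 1, which is near the shares of all genes and no result about these lists. Of 75 cytosolic ribosomal protein genes 2 were lower with the block and none was higher.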

How the data were processed

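Single U-2 OS cells (UT and IR, 2 libraries each) were profiled by SORT-seq. The authors mapped reads to GRCh38 with STARsolo, left out intronic reads and reads shared between genes, and used no UMI cut-off in mapping. The study's own plots of these libraries hold fewer cells of each than were used here. Seurat 5 is also named in the submitters' notes. The deposited values are expected counts: 99.96% lie on the correction for 4096 possible UMI sequences of 6 bases, and no value exceeds 138. The design assumed whole counts, so sums were rounded. The strand setting is not given in the sources used here. No doublet caller was run, since cells were sorted singly.

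Groups came from sample titles. All 1220 barcodes were used and the 92 spike-ins left out. Member and other cells were summed per library, and tested in R 4.3.3 with edgeR 4.0.16: filterByExpr, TMM scaling and a robust, two-sided quasi-likelihood test without other terms than group. Calls needed a Benjamini-Hochberg adjusted p under 0.05. The 20 rule genes stayed in the fit but got no p. The labels mark a shared experiment by number, so the blocked fit is given beside it. Same-numbered libraries deviated together (r = 0.421 over 12073 genes), and edgeR's biological coefficient of variation fell from 0.173 to 0.0846 when the block was added. The study's methods describe the experiments as independent sets of samples, so p-values rest on 2 such sets. Alternatives were DESeq2 1.42.0, RLE scaling, no filter, leaving out each library, other percentiles (30th and 50th), thinning to 8000 UMIs, equal numbers of members (64 per library) and leaving out genes near the count ceiling. Scripts were tested on simulated data.

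The members and gene lists were chosen with earlier results of these data known. Named genes were CDKN1A, MDM2, FAS, GADD45A, GDF15, TP53BP1 and the rule genes, the 10 largest called changes per direction among genes averaging 20 CPM or more that moved one way in each experiment, up to 4 per list by p, and the 5 smallest p per direction of the interaction. Others named in the text were chosen after their values were seen. CPM are of rounded sums without TMM, and fold changes use TMM. RefSeq promoters matched 92 of 135 named genes.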

Additional observations from a re-analysis of the deposited data

Results flagged for a closer look

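The change from UT to IR differed between low cycle cells and the other cells, by the interaction test in edgeR, for 14 of the genes named by the rules. Low cycle cells were a larger share of IR than of UT cells, and the part of this in the differences was not tested. On the log2 scale the differences (members minus other cells) were -0.84 for CDKN1A, -0.51 for NEAT1, -1.42 for AP000527.1, -1.37 for BTG2, -3.67 for PTX3, -1.53 for CLSPN, -0.78 for MDM2 and -2.15 for DTL. They were 1.81 for IFIT1, 0.41 for MT2A, -1.35 for ACTA2, -1.36 for GDF15, -0.68 for CKS1B and -1.27 for SUGCT. CLSPN, DTL and CKS1B belong to the cycle programmes on which the members were chosen. PTX3 had 1.22 and 4.66 CPM in the other UT cells, so its difference rests on few counts there.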

How the results depend on the processing

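In low cycle cells the 10 genes higher and 3 lower in IR became 524 and 442 with the replicate block, 39 and 38 with DESeq2, 242 and 143 with no filter on low counts, 4 and 1 for members under the 30th percentile, 30 and 15 under the 50th percentile, and 17 and 11 with IR members matched on S and M. Cells thinned before summing left 1 lower. Leaving out 1 library gave 16 to 47 higher (16 without IR experiment 1, 30 without IR experiment 2, 47 and 46 without UT experiments 1 and 2) and 2 to 46 lower. All 13 genes kept their direction in every alternative run for them, and all 13 were called with the block and with DESeq2. They were also called without either UT library, where the lone UT library is assumed to vary as the 2 IR libraries did. GDF15, IFIT1 and UCA1 were called in all 15 alternatives, and the fewest were 10 for CNTNAP2 and 11 for OASL. Under the 30th percentile 8 of the 13 were no longer called. Of 102 other named genes 71 passed the threshold with the block. Many of these were named for a small p in the same sums, so that count follows in part from the choice. Of all genes 4.35% were higher and 3.67% lower with the block.

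For the interaction, 2 higher and 33 lower differences became 0 and 2 with DESeq2 (172 genes with an unadjusted p under 0.05), 64 and 53 with no filter, 4 higher under the 30th percentile, 13 higher with members chosen after thinning, 6 and 17 with cells thinned before summing, and 5 higher after matching. Leaving out 1 library gave 0 to 9 higher and 6 to 43 lower, with 0 and 16 without UT experiment 1 (1025 unadjusted) and 0 and 6 without UT experiment 2 (996 unadjusted). Of the 14 named differences, 10 were no longer called without UT experiment 1 and 11 without UT experiment 2. CDKN1A and NEAT1 were called in all 13 alternatives run for them. These 2 genes and MT2A are near the count ceiling, so the alternative without such genes could not be run for them. The cause of these shifts was not tested.

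The difference in share was 29.3 points in experiment 1 and 30.9 in experiment 2, and 29.6 to 30.6 without any 1 library. RLE scaling moved no call. The UT members' counts limit detection of genes at a few CPM, and 1 or 2 residual degrees of freedom limit the tests.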
